A study of Arabidopsis thaliana with 24 samples.

Results

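The genes described here are 50 Arabidopsis thaliana genes of auxin perception named Aux/IAA (29 genes), ARF (15 genes) and TIR1/AFB (6 genes) by RefSeq symbol or synonym, out of 38194 features in the count table. They were taken by family name. The ARFs are ARF1 to ARF11 and ARF16 to ARF19, so ARF genes with other numbers are not covered. Leaves 1 and 2 of Columbia-0 plants, 10 d old and grown in continuous light, were detached, surface-sterilized and floated for 8 h in a buffer of salts, glucose and dimethyl sulfoxide. The buffer had no further addition (mock) or held bikinin at 20 µM, 2,4-D at 2.5 µg/mL and kinetin at 0.5 µg/mL (stimulus). Both arms then received 1 mM cordycepin, an adenosine analogue that terminates growing RNA chains, and leaves were frozen at 0, 15, 60 or 240 min. Each of the 8 groups had 3 libraries, numbered 2, 3 and 4, and each library pooled many leaves. The 3 agents were given together, so an effect of one cannot be told apart from an effect of another. Bikinin inhibits GSK3-like kinases that restrain brassinosteroid signalling, 2,4-D is a synthetic auxin and kinetin is a cytokinin.

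In the auxin pathway, Aux/IAA proteins bind ARF transcription factors at auxin-responsive genes and recruit TOPLESS corepressors. Auxin joins a TIR1/AFB F-box protein, the receptor, to the degron of an Aux/IAA protein, which is then ubiquitinated by an SCF ligase and degraded, and the ARF is released. Many Aux/IAA genes are themselves targets of ARFs, so the family is a known readout of auxin as well as its negative feedback. Small RNAs act on the other families: miR393 on receptors, miR160 and miR167 on sets of ARFs, and trans-acting small RNAs from TAS3 on ARF2, ARF3 and ARF4.

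The degron carries a Gly-Trp-Pro-Pro core, and its codons, in capitals below, were searched for in the RefSeq coding sequences (TAIR10.1). They are shown for members whose RNA moved most or was most abundant.
IAA5: caagttgtgGGTTGGCCACCGgtttgttcg
IAA19: caggtggtgGGGTGGCCACCGgtttgttct
IAA9: caaattgtcGGTTGGCCTCCAgtgagatcc
IAA8: caggttgttGGTTGGCCTCCAatcagatca
IAA26: ccagtggtgGGTTGGCCTCCGgttcgttcg
The core was found in 23 of the 29 Aux/IAA genes. It was absent from IAA20, IAA30, IAA31, IAA32, IAA33 and IAA34.

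The microRNAs were matched to the 21 ARF and receptor transcripts, with a penalty of 1 for a mismatch and 0.5 for a G:U pair. The mature sequences are shown with the seed (bases 2 to 8) in capitals.
miR160a-5p: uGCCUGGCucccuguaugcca
miR167c-5p: uAAGCUGCcagcaugaucuug
miR393a-5p: uCCAAAGGgaucgcauugaucc
Sites with a penalty of 3.5 or less were found in 9 members, and all 9 lay in coding sequence. The sites are written as the transcript's strand, with bases that do not form a Watson-Crick pair in capitals.
ARF17 (miR160): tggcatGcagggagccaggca
ARF10 (miR160): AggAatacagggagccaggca
ARF16 (miR160): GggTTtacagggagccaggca
ARF6 (miR167): TGagatcaGgctggcagcttG
ARF8 (miR167): TTagatcaGgctggcagcttG
TIR1 (miR393): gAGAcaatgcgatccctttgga
AFB1 (miR393): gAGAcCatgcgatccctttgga
AFB2 and AFB3 (miR393): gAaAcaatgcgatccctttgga
The best match in every other pairing of an ARF or receptor with these microRNA families had a penalty of at least 5.

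Total counts ran from 24021278 to 34166478 per library, of which 30.7% to 46.9% came from organelle genes. GH3.3, an auxin-conjugating enzyme used to check the labels, lay at 0.749 to 7.33 CPM (counts scaled to a common library size) in mock libraries and at 153 to 740 CPM in stimulus libraries. The libraries did not follow their minutes alone. A decline index was taken as the median log2 change of the 200 transcripts that fell most from 0 to 240 min in stimulus replicate 2. It stood at -2.47, -1.46 and -2.61 in stimulus replicates 2, 3 and 4 at 240 min, and the low value of replicate 2 follows from that choice. In mock replicate 2 the index was -0.11 at 240 min, in mock replicate 3 it was -1.65 at 60 min and -0.42 at 240 min, and in mock replicate 4 it was -2.59 at 240 min. A score of evening against morning clock genes was above 0.5 in 8 libraries, namely those of replicate 3 at 0, 15 and 60 min in mock, those of replicate 3 after 0 min in stimulus, and both libraries of replicate 4 frozen at 240 min. Results after 0 min are therefore given by series as well as by group, although a series can hold libraries on both sides of that limit. At 0 min, leaving out mock replicate 3, the only library of that time with a score above 0.5, gave 37 called members in place of the 39 below. The share of all features called without that library is not given here.

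Before cordycepin, the question was which members the 8 h stimulus raised or lowered. At 0 min 39 of the 47 members tested differed between the arms at an adjusted p under 0.05, where 56.3% of all 20323 features tested did (edgeR quasi-likelihood test, Benjamini-Hochberg adjustment over all features). Most Aux/IAA genes rose: 18 of the 26 tested members were higher and 4 lower, with a median log2 change of 1.03, against 26.6% higher and 29.7% lower and a median of -0.02 over all features. Of these 18, IAA6, IAA20, IAA30, IAA32 and IAA34 passed the filter on low counts through their stimulus libraries. Their part in the count and in the median is a description only. The ARFs were divided, with 5 of 15 higher and 8 lower and a median of -0.31. Of the 6 receptors 1 was higher and 3 were lower, with a median of -0.26.

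**Figure D1:**
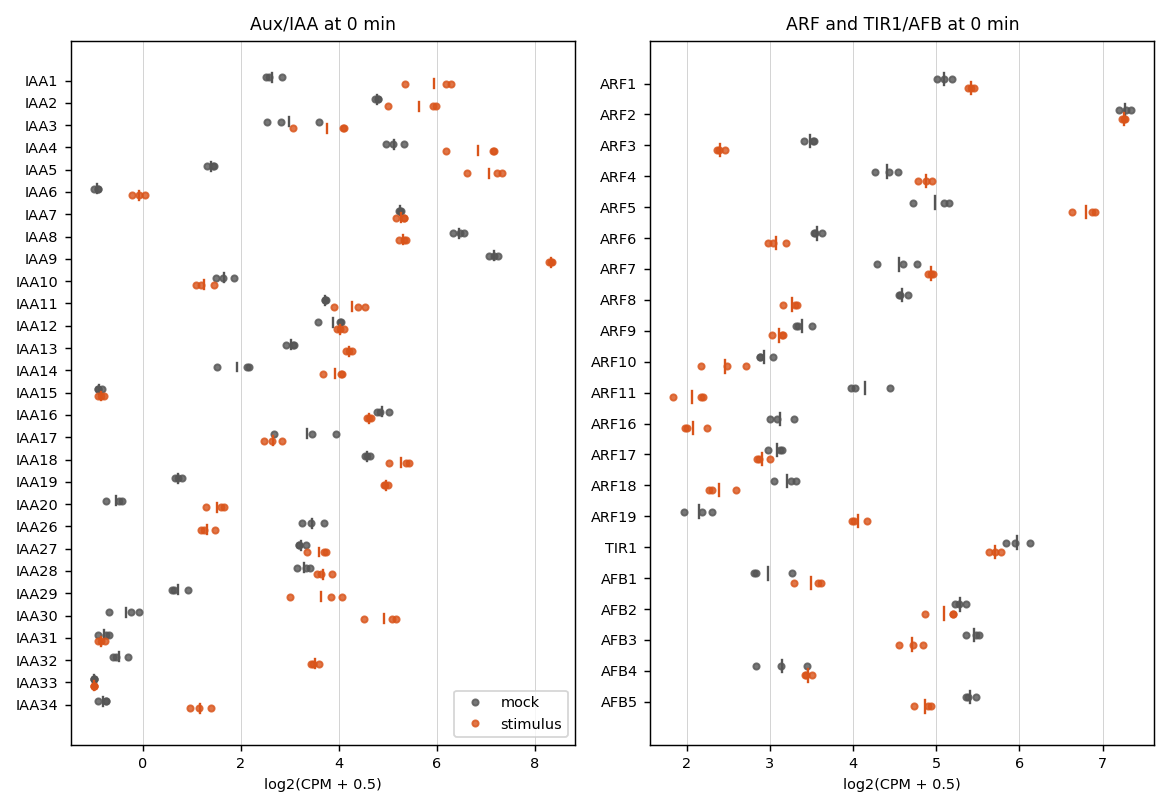
Level of each of the 50 genes at 0 min, as log2(CPM + 0.5) on the horizontal axis. Points are the 3 mock (grey) and 3 stimulus (orange) libraries and bars their means. IAA5, IAA19, IAA30 and IAA32 separate the arms most widely, while IAA7 and ARF2 overlap.

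The largest rises were in Aux/IAA genes that were nearly silent in mock leaves. IAA30 (AT3G62100), whose product lacks the degron core, lay at 0.338, 0.120 and 0.447 CPM in mock replicates 2, 3 and 4 and at 33.5, 35.4 and 22.3 CPM in stimulus. The log2 change was 6.61 ± 0.32 (SE). IAA30 passed the filter on low counts through its stimulus libraries, so this change is a description only. IAA5 (AT1G15580) lay at 1.97, 2.22 and 2.20 CPM in mock and at 160, 150 and 97.2 CPM in stimulus, a log2 change of 5.97 ± 0.22 (adjusted p = 6.3e-07, edgeR). Replicate 4 was the lowest stimulus library for both genes, and the arms did not overlap for IAA5.

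IAA32 and IAA34 encode Aux/IAA proteins without the degron. Both passed the filter on low counts through their stimulus libraries, so their changes are a description only. IAA32 (AT2G01200) lay at 0.307, 0.150 and 0.179 CPM in mock and at 10.6, 11.6 and 10.4 CPM in stimulus (log2 change 5.64 ± 0.21). IAA34 stayed lower in level, at 0.0921, 0.0299 and 0.0893 CPM in mock and 1.45, 1.70 and 2.14 CPM in stimulus. Its 7 counts over the mock libraries against 190 over the stimulus libraries gave a ratio of 24.9 (exact 95% interval 11.9 to 62.8, counting error only).

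IAA19 (AT3G15540), the MSG2 gene of hypocotyl bending, had the smallest error of the strongly raised members. It lay at 1.07, 1.23 and 1.13 CPM in mock and at 31.6, 30.2 and 30.0 CPM in stimulus, and its log2 change of 4.71 ± 0.10 was many times its error (adjusted p = 7.0e-08, edgeR). IAA6, also known as SHY1, had 2 counts in all 3 mock libraries together and 48 in stimulus, a ratio of 22.1 (exact 95% interval 5.79 to 187). IAA20, another gene without a degron core, had 18 and 258 counts and a ratio of 13.2 (8.16 to 22.6). IAA6, IAA20, IAA30, IAA32 and IAA34 passed the filter on low counts through their stimulus libraries, so their being called higher follows in part from that filter.

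Below these came IAA1 (log2 change 3.43 ± 0.27), IAA29 (3.42 ± 0.31), IAA14 (2.11 ± 0.20) and IAA4 (1.75 ± 0.26), each higher at an adjusted p of at most 0.0012 (edgeR). IAA9 (AT5G65670), the most abundant Aux/IAA in mock, rose from 133, 152 and 143 CPM to 323, 315 and 328 CPM, a log2 change of 1.15 ± 0.09 (adjusted p = 7.8e-06, edgeR). IAA13, IAA2, IAA18, IAA11, IAA28 and IAA27 completed the 18 that rose, with log2 changes from 0.36 to 1.22.

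Other members of the family were lower. IAA26 (AT3G16500), also called PAP1, fell by 2.44 ± 0.16 on the log2 scale (adjusted p = 3.8e-06, edgeR), from 8.94, 12.5 and 10.3 CPM in mock to 2.27, 1.79 and 1.87 CPM in stimulus. IAA8 (AT2G22670), the closest relative of IAA9, fell by 1.18 ± 0.08 (adjusted p = 4.2e-06, edgeR), from 93.6, 80.6 and 88.8 CPM to 41.1, 39.9 and 37.1 CPM. So IAA8 and IAA9, the leading pair in mock, moved in opposite directions, with no overlap of the arms for either. IAA10 fell by 0.53 and IAA16 by 0.30. Several smaller calls rested on single libraries. The call was lost for IAA10 without replicate 3 or 4 of either arm, for IAA16 without stimulus replicate 3 or 4, for IAA2 without mock replicate 2 or stimulus replicate 3, for IAA28 without replicate 2 of either arm, and for IAA27 without replicate 3 of either arm, stimulus replicate 2 or mock replicate 4. IAA3, IAA7, IAA12 and IAA17 were tested and not called, and IAA15, IAA31 and IAA33 had too few counts to be tested. IAA33 had 1 count in all 24 libraries.

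**Figure D2:**
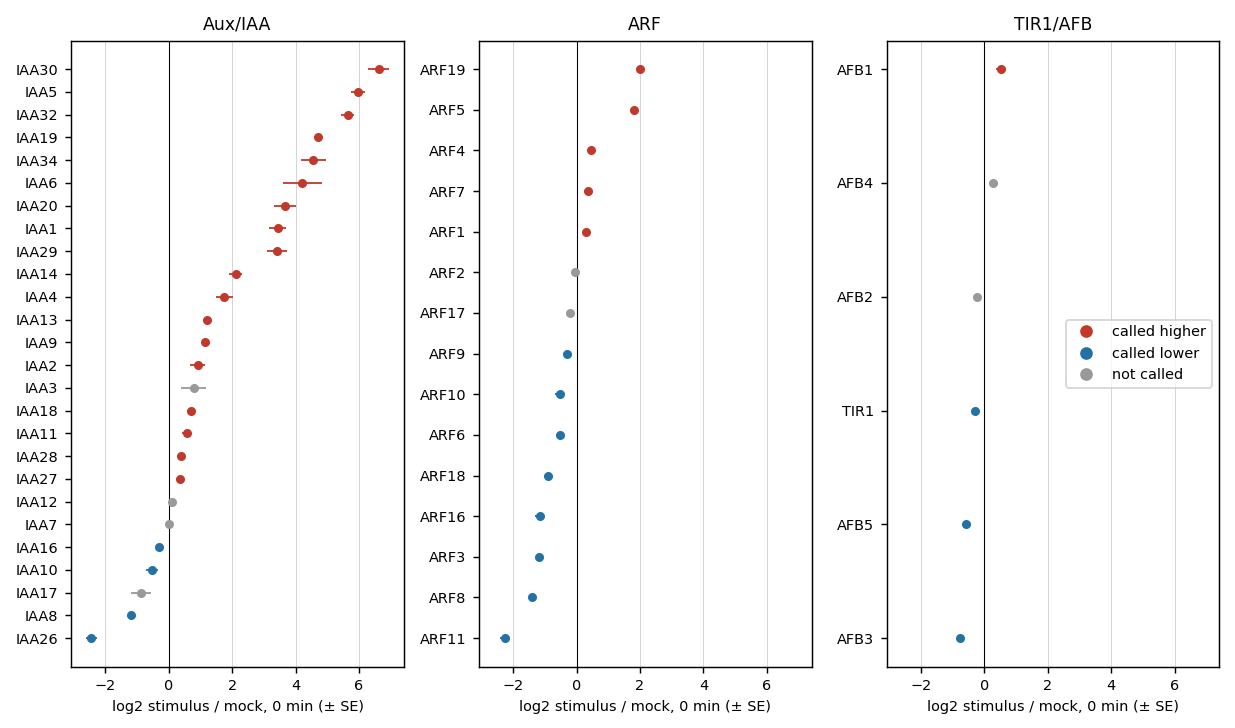
Log2 change of stimulus over mock at 0 min for the 47 members tested, by family, with bars of 1 SE. Colours mark members called higher, called lower and not called. Changes run from -2.44 (IAA26) to 6.61 (IAA30) among Aux/IAA genes and stay between -0.78 and 0.52 among receptors.

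Among the tested Aux/IAA genes without the degron core, all 4 (IAA20, IAA30, IAA32 and IAA34) were called higher, with a median log2 change of 5.10. Of the 22 tested genes with the core 14 were higher and 4 lower, with a median of 0.74. Over all features 26.6% were higher and 29.7% lower. All 4 genes without the core passed the filter through stimulus, so this contrast is a description only.

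In level per length, the summed RNA of the Aux/IAA family was 272 ± 7.44 CPM per kb of exon in mock and 747 ± 130 in stimulus (mean ± SD, n = 3 libraries each). The sum for the ARFs taken here was 109 ± 3.3 and 123 ± 4.78, and that for receptors was 79.8 ± 3.94 and 62.9 ± 5.15. In mock the Aux/IAA order was led by IAA9 at 66.7 CPM per kb, IAA8 at 42.6 and IAA4 at 25.6, each above the next without overlap. In stimulus IAA5 and IAA9 led and overlapped each other. ARF2 was the most abundant of these ARFs in both arms, at 39.9 and 39.3 CPM per kb, and ARF5 moved from the third place (8.73) to the second (30.9).

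Of the ARFs that activate transcription, ARF19 and ARF5 rose together. ARF19 (AT1G19220) lay at 4.42, 4.04 and 3.42 CPM in mock and at 15.7, 17.5 and 15.3 CPM in stimulus, a log2 change of 2.00 ± 0.12 (adjusted p = 2.1e-06, edgeR). ARF5 (AT1G19850), or MONOPTEROS, which patterns the vascular tissue, lay at 35.1, 25.9 and 33.6 CPM in mock and at 117, 119 and 98.5 CPM in stimulus, a log2 change of 1.80 ± 0.12 (adjusted p = 4.9e-06, edgeR). ARF7, which acts redundantly with ARF19, rose by 0.36 ± 0.11, a call lost without stimulus replicate 2 or 3 or mock replicate 4. The other activators, ARF6 and ARF8, fell by 0.54 ± 0.10 and 1.40 ± 0.08.

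ARFs classed as repressors moved in both directions. ARF11 (AT2G46530) fell by 2.25 ± 0.16 (adjusted p = 6.0e-06, edgeR), from 15.2, 21.3 and 15.7 CPM to 4.01, 4.07 and 3.07 CPM. ARF3, or ETTIN, fell by 1.18 ± 0.10, from 11, 10.9 and 10.1 CPM to 5.01, 4.64 and 4.74 CPM. Over the 10 repressors 6 were lower and 2 higher, with a median of -0.42, where 29.7% of all features were lower and 26.6% higher. ARF4 (0.45 ± 0.09) and ARF1 (0.30 ± 0.07) were the higher ones, and ARF2 and ARF17 were not called. Among the lower ones the call was lost for ARF9 without stimulus replicate 2 or 3 or mock replicate 3, with total counts and with DESeq2, and for ARF10 without stimulus replicate 3 or 4, without mock replicate 4 and with total counts.

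The receptors changed little. AFB3 (AT1G12820) fell by 0.78 ± 0.09, from 44.2, 45.3 and 40.6 CPM to 28.2, 25.9 and 22.9 CPM (adjusted p = 7.5e-05, edgeR), and AFB5, of the picloram-binding branch, fell by 0.58 ± 0.08. TIR1 (AT3G62980) was the most abundant receptor in both arms, at 69.7, 56.5 and 61.4 CPM in mock and 54.4, 51.9 and 49.0 CPM in stimulus, a fall of 0.30 ± 0.09 (adjusted p = 0.019, edgeR). AFB1 rose by 0.52 ± 0.15, and AFB2 (-0.22 ± 0.10) and AFB4 (0.28 ± 0.15) were not called. The calls of TIR1 and AFB1 were each lost when single libraries were left out: stimulus replicate 3 or 4 for TIR1, and stimulus replicate 2 or 3 or mock replicate 4 for AFB1. With total counts as library sizes the median of all features moved to 0.23, TIR1 was not called, and 27 members were higher and 10 lower in place of 24 and 15. Shares of all features called with that scaling are not given here, so these counts are not read as results about the members.

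Partners of the pathway were read from lists taken from textbook knowledge. At 0 min 26.6% of all features were called higher and 29.7% lower. Of 9 genes of the SCF ligase and its activation 6 were higher and none lower, with log2 changes of at most 0.39 (SGT1B). Of the 5 TOPLESS corepressors TPR2 (0.85 ± 0.11) and TPR1 (0.69 ± 0.09) were higher. MIR167D, a locus of the miR167 family whose mature sequence differs from the miR167c-5p shown above, had 415 counts in mock and 4 in stimulus at 0 min, 113-fold lower (exact 95% interval 43.8 to 417). The other loci of the family did not fall to that extent. MIR167A had 31, 16 and 20 counts in mock and 19, 10 and 5 in stimulus at 0 min. MIR167B had 10, 11 and 5 counts in mock and 3, 4 and 5 in stimulus. MIR167C, the locus of miR167c-5p, had 0 or 1 counts in each of the 24 libraries. TAS3 fell by 0.99 ± 0.20 on the log2 scale. These total-RNA libraries count precursors, and the mature small RNAs were not measured.

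Markers of leaf cell types moved as well at 0 min, where 26.6% of all features were called higher and 29.7% lower. Of 5 mesophyll markers 4 were lower, and their sum was 9749 to 17480 CPM in mock and 7550 to 9062 CPM in stimulus. Both guard cell markers were lower (sum 22.8 to 31.0 and 13.9 to 18.3 CPM), as was 1 of 2 epidermal markers (68.8 to 78.6 and 50.3 to 52.2 CPM). Of 2 companion cell markers SUC2 was higher, by 1.06 ± 0.15, and AHA3 lower, with sums of 135 to 153 and 141 to 174 CPM. The root hair markers EXPA7 and RHD6 were at or near 0, and PYK10, the third root marker, was lower in stimulus. In bulk leaves fewer cells of a type and less RNA per cell cannot be told apart, and the part of these shifts in the members' changes was not tested.

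Promoters are shown because many Aux/IAA genes moved together. The window ran from 250 bases before to 50 bases after the RefSeq start (TAIR10.1), and the auxin response elements TGTCTC and TGTCGG were searched on both strands. They are in capitals, which read GAGACA or CCGACA on the reverse strand.
IAA19, chr3:5263751-5264050, plus strand: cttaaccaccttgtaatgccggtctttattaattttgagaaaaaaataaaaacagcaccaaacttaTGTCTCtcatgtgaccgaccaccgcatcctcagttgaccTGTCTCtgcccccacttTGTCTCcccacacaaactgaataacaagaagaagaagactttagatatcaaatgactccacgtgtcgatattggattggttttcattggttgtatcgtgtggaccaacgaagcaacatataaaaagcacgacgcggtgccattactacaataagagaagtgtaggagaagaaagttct
IAA5, chr1:5366448-5366747, minus strand: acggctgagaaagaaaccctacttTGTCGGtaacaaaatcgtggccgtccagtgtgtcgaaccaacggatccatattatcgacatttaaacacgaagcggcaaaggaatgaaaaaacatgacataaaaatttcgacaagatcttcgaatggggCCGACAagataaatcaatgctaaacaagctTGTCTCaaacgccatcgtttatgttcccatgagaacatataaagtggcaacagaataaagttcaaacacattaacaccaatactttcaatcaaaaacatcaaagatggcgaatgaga
IAA8, chr2:9636096-9636395, plus strand: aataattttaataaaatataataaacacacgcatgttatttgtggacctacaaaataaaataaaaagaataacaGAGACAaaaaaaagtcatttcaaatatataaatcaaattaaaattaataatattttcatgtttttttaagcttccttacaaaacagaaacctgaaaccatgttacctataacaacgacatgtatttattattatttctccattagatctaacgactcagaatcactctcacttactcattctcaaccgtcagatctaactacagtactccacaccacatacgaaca
IAA19, which rose, holds TGTCTC 3 times. IAA5, which rose, holds TGTCTC once and TGTCGG on 2 occasions. IAA8, which fell, holds TGTCTC once. At least 1 of the motifs lay in 16 of 29 Aux/IAA windows, in 3 of 15 ARF windows and in 1 of 6 receptor windows, against 18.7% of 27443 protein-coding windows of the same length. Among the Aux/IAA genes it lay in 11 of the 18 called higher and in 2 of the 4 called lower.

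After cordycepin the same contrast between arms was made at each time point. At 15 min 15 of 46 members were called (15.9% of all features were), at 60 min 12 of 46 (7.72%) and at 240 min 13 of 46 (11.3%). At 15 min the replicate numbers paired the libraries, and with the number as a block 26 members were called (16 Aux/IAA genes, 9 ARFs and 1 receptor), 16 of them higher and 10 lower. The shares of all features given here are those without the block, so the 26 is not read as a result about the members. Without the block the higher Aux/IAA genes numbered 8, 8 and 9 at 15, 60 and 240 min, where 7.12%, 2.64% and 3.89% of all features were higher. Among them at each time were IAA20, IAA30 and IAA32, which passed the filter on low counts through their stimulus libraries. The lower Aux/IAA genes numbered 2, 1 and 1, where 8.81%, 5.08% and 7.39% of all features were lower. ARF5 and ARF19 were higher at each of these times and ARF11 lower, while no receptor was called. With the block at 15 min AFB3 was called lower (adjusted p = 0.0286, edgeR).

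**Figure D3:**
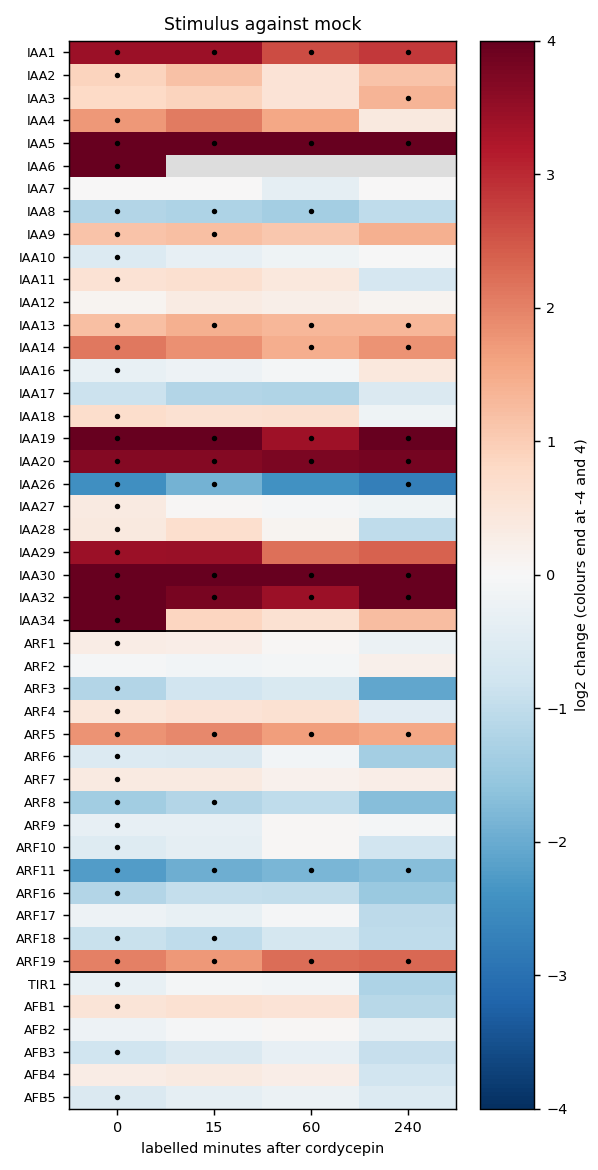
Log2 change of stimulus over mock (colour) for the 47 members tested at 0 min, in columns by labelled minutes after cordycepin. Black dots mark adjusted p under 0.05 and grey cells were not tested. IAA1, IAA5, IAA13, IAA19, IAA20, IAA30, IAA32, ARF5, ARF11 and ARF19 carry a dot in all 4 columns.

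Of the 6 Aux/IAA genes with the largest rises at 0 min, IAA30, IAA5, IAA32 and IAA19 were called higher at each later time, IAA34 at none of them, and IAA6 was not tested there. For IAA34 the log2 change was 0.86 ± 0.79 at 15 min, 0.60 ± 0.89 at 60 min and 1.23 ± 0.79 at 240 min. IAA20, IAA30 and IAA32 passed the filter on low counts through their stimulus libraries, so their calls here are a description only. For IAA30 the log2 change was 6.59 ± 0.70 at 15 min, 5.39 ± 0.35 at 60 min and 5.08 ± 0.65 at 240 min. For IAA5 it was 6.18 ± 0.89, 5.04 ± 0.97 and 4.26 ± 0.67, for IAA19 4.28 ± 0.26, 3.38 ± 0.26 and 4.40 ± 0.59, for IAA20 3.68 ± 0.75, 3.75 ± 0.76 and 3.83 ± 0.83, for IAA32 3.78 ± 0.83, 3.43 ± 0.63 and 4.08 ± 0.67, and for IAA1 3.42 ± 0.53, 2.61 ± 0.37 and 2.83 ± 0.27, all called. For ARF19 it was 1.74 ± 0.25, 2.24 ± 0.47 and 2.30 ± 0.43, for ARF5 1.92 ± 0.20, 1.67 ± 0.28 and 1.55 ± 0.23, and for ARF11 -1.97 ± 0.23, -1.84 ± 0.27 and -1.70 ± 0.25.

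Falls were called less evenly. IAA26 was called lower at 15 min (-1.88 ± 0.50, adjusted p = 0.048, edgeR) and 240 min (-2.75 ± 0.69, adjusted p = 0.045, edgeR), and had -2.41 ± 0.72 at 60 min. IAA8 was called at 15 min (-1.23 ± 0.20) and 60 min (-1.35 ± 0.31). ARF8 and ARF18 were called lower at 15 min only, at -1.18 ± 0.17 and -1.01 ± 0.24. Receptor values at 240 min ran from -1.23 ± 0.64 (TIR1) to -0.36 ± 0.42 (AFB2).

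These later counts depend on single libraries. At 60 min 2 members were called without mock replicate 3, 3 without stimulus replicate 2 and 6 without stimulus replicate 3. At 240 min 28 were called without mock replicate 4, 7 without mock replicate 3, 5 without stimulus replicate 2 and 4 without stimulus replicate 4. Mock replicate 4 at 240 min was the mock library of that time with the lowest decline index. The share of all features called with a library left out is not given here, so these counts are not read as results about the members.

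How the members' RNA fell was read first within each series of 4 libraries, as log2 CPM against 0 min of the same series, over members with at least 50 counts in each 0 min library. TIR1 shows the spread. Its levels at 0, 15, 60 and 240 min were 69.7, 46.1, 58.3 and 56.3 CPM in mock replicate 2, 56.5, 54.9, 25.3 and 57.9 CPM in mock replicate 3, and 61.4, 27.3, 13.3 and 12.8 CPM in mock replicate 4. In stimulus replicate 2 they were 54.4, 42.8, 31.2 and 13.8 CPM, in replicate 3 51.9, 48.8, 46.8 and 31.7 CPM, and in replicate 4 49.0, 29.1, 12.1 and 9.38 CPM. TIR1 was thus well below its start at 240 min in mock replicate 4 and in all stimulus series, and near its start in mock replicates 2 and 3. The clock score also differed within series. From 0 to 240 min it went from -0.41 to 0.24, 1.93 to -0.93 and -0.71 to 2.14 in mock replicates 2, 3 and 4. In stimulus it went from -1.03 to 0.04, -0.34 to 2.23 and -0.64 to 2.14. Whether same-numbered libraries form a single time course was not tested. Values against 0 min of a series are therefore a description only.

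**Figure D4:**
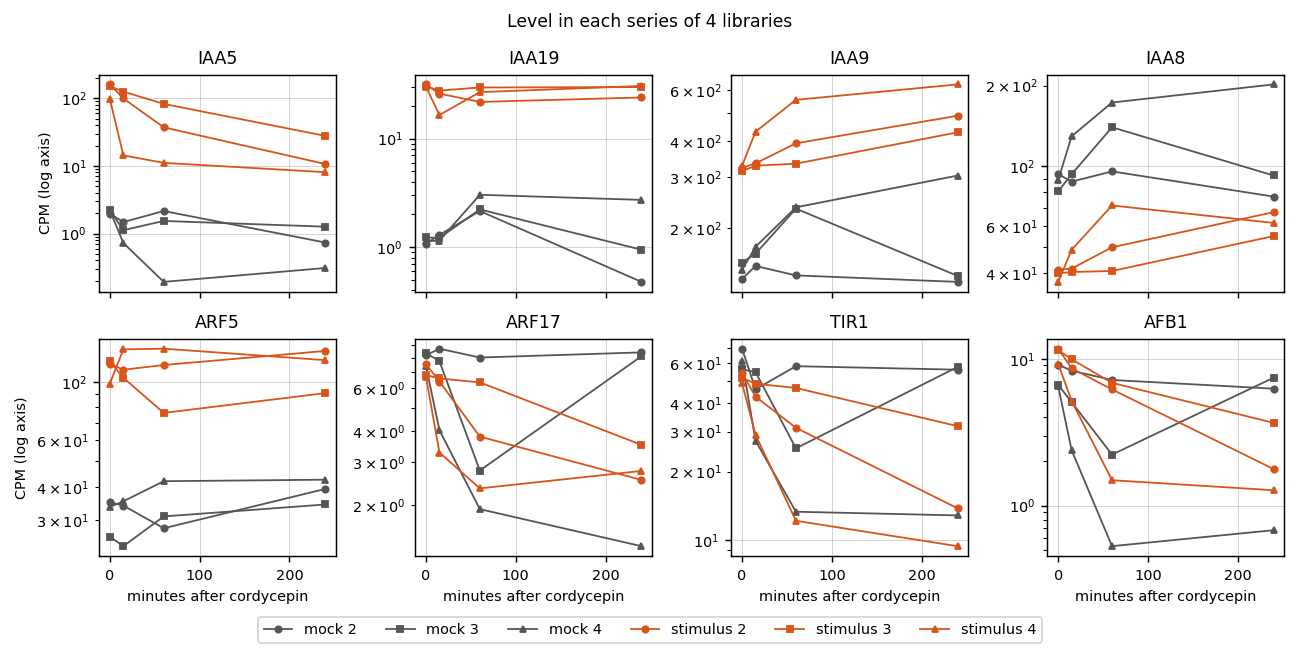
CPM on a log axis against minutes after cordycepin for 8 members, with 1 line per series of 4 libraries (grey mock, orange stimulus; circle, square and triangle for replicates 2, 3 and 4). TIR1, AFB1 and ARF17 drop in mock replicate 4 and the stimulus series, and mock replicate 3 is low at 60 min only, while IAA8, IAA9 and ARF5 do not drop in this way.

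The 9 members with a microRNA site lay below their start together in the series with a low decline index. By 240 min their median was -2.08 in mock replicate 4 and -1.16, -0.60 and -1.14 in stimulus replicates 2, 3 and 4, with all 9 below 0 in each of these series. In mock replicate 2 the median was -0.04 with 5 of 9 below 0, and in mock replicate 3 it was -1.32 at 60 min with all 9 below 0 and -0.04 at 240 min. The 10 ARFs without such a site had medians at 240 min of -0.08, 0.20 and 0.04 in mock replicates 2, 3 and 4 and of 0.21, -0.33 and 0.30 in stimulus. The 2 receptors without such a site, AFB4 and AFB5, had medians of -0.25, 0.12 and -1.16 in mock replicates 2, 3 and 4 and of -0.94, -0.72 and -0.78 in stimulus, so lower values were also found among receptors that have none. Aux/IAA transcripts were not searched for sites, and some of them fell further than these 9 members. At 240 min the lowest Aux/IAA value was -3.16 in mock replicate 4 and -3.85 in stimulus replicate 2. The lowest of the 9 members was -2.84 and -2.42 there, and the Aux/IAA medians were -0.56 and -0.70. The median of all features, in the same scale, lay between -0.13 and -0.01 in the libraries of this paragraph. ARF3 and ARF4, in the TAS3 class, fell like the first group, and ARF2 did not: ARF4 went from 22.7 to 4.21 CPM between 0 and 240 min in mock replicate 4, and ARF2 from 162 to 169 CPM.

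A line of log count on minutes was then fitted over the 12 libraries of an arm, after scaling by ribosomal protein transcripts taken as stable. In stimulus 26 of 47 members were called falling, against 34.3% of all 21530 features, and no member was called rising, against 2.23%. They were 11 of 26 Aux/IAA genes, 9 of 15 ARFs and all 6 receptors. The medians were -0.16, -0.23 and -0.35 log2 per hour in that order, with -0.09 over all features. The number called depended on the replicates fitted: without replicate 2 no member was called, without replicate 3 16 were and without replicate 4 25 were. Over 0 to 60 min alone no member was called. Shares of all features called in these refits are not given here. These counts are therefore not read as results about the members.

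**Figure D5:**
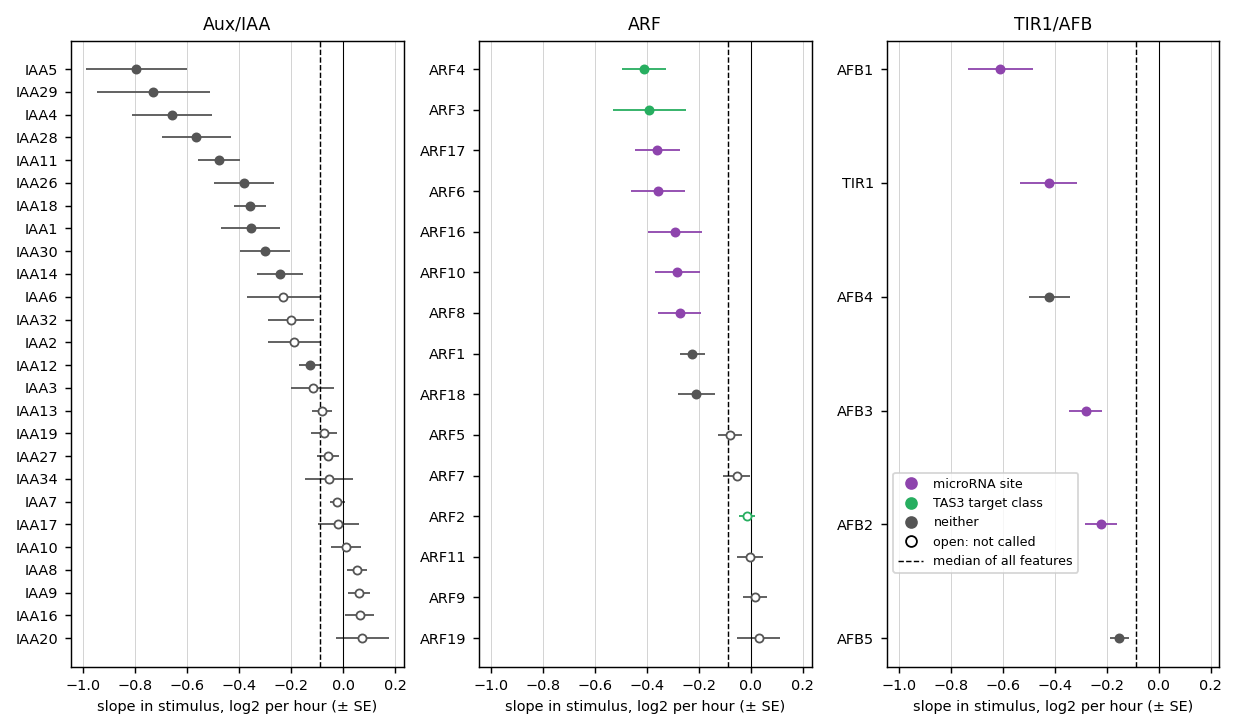
Fitted slope in stimulus, in log2 per hour with bars of 1 SE, for the 47 members tested, by family. Purple marks members with a microRNA site, green the TAS3 class, and open points were not called falling. All purple points are filled, and IAA5 at -0.80 is the steepest member.

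IAA5, the member with the second largest rise at 0 min, had the steepest slope, -0.80 ± 0.19 log2 per hour (adjusted p = 0.011, edgeR), a half-life of 75.4 min (60.7 to 99.6 min at 1 SE either side). Its level in stimulus replicate 2 went from 160 through 99.3 and 37.1 to 10.7 CPM. IAA29 followed at -0.73 ± 0.22, a half-life of 82.0 min (63.2 to 117 min). Over 0 to 60 min alone the slopes of IAA5 and IAA29 were -1.80 and -2.18, neither called, so the half-life depends on the times fitted. The call was lost for IAA5 without replicate 2 and for IAA29 without replicate 2 or 3. The highest fitted Aux/IAA slopes were those of IAA20 (0.07 ± 0.10) and IAA16 (0.06 ± 0.05), neither called. IAA19 and IAA9, raised like IAA5, had -0.07 ± 0.05 and 0.06 ± 0.04 and were not called either.

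Among ARFs the steepest were ARF4 (-0.41 ± 0.09) and ARF3 (-0.39 ± 0.14), and the highest fitted slopes were those of ARF19 (0.03 ± 0.08) and ARF9 (0.01 ± 0.05). All 5 ARFs with a microRNA site were called falling, as were 4 of the 10 without, where 34.3% of all features were. ARF3 and ARF4, of the TAS3 class, were among those 4. Among receptors AFB1 had -0.61 ± 0.13 and TIR1 -0.42 ± 0.11, and AFB2 (-0.22 ± 0.06) and AFB5 (-0.15 ± 0.04) were the shallowest. AFB4, which has no miR393 site, had -0.42 ± 0.08 as well, and AFB3 had -0.28 ± 0.06.

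In mock no member of 45 tested was called falling or rising, and none of 21195 features was (0%). Over all features 609 had an unadjusted p under 0.05 with edgeR, and DESeq2 called 2, no member among them. The steepest fitted values in mock were those of IAA29 (-0.43 ± 0.14) and IAA5 (-0.33 ± 0.16). The difference in slope between arms was called for none of 47 members and none of 22307 features (0%), with 1788 features at an unadjusted p under 0.05 and 7 called by DESeq2, again no member. The series of mock did not fall alike, so the spread between them is part of every mock slope and of every difference in slope.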

How the data were processed

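The authors deposited whole-number read counts for 38194 features in 24 libraries, neither normalised nor pooled. Per the labels, RNA was depleted of ribosomal RNA and sequenced as stranded single reads, and the submitters' processing notes name TopHat2, Bowtie2 and TAIR10. The counting tool, its strand setting and the annotation are not given in the sources used here. Names and coordinates are those of RefSeq TAIR10.1.

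Counts were analysed in R 4.3.3 with edgeR 4.0.16 (filterByExpr, TMM library sizes, robust quasi-likelihood F tests, two-sided). P-values were adjusted over all features tested by the method of Benjamini and Hochberg and called under 0.05. CPM values use TMM sizes over all 24 libraries. Contrasts used the 6 libraries of a time point. Slopes used 12 libraries, with library sizes multiplied by the rise of 60 ribosomal protein transcripts since 0 min: 0.11, 0.34 and 0.26 (log2) in mock and -0.00, 0.25 and 0.34 in stimulus at 15, 60 and 240 min. That reference was taken after it and a photosynthesis reference had both been looked at. A half-life is 1 log2 unit divided by the fitted slope.

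Members, lists, the clock score limit of 0.5 and the 200 index genes were chosen with earlier results of these data known. Named genes were, per contrast, the 6 largest rises and 3 largest falls among called Aux/IAA genes, 3 and 3 among ARFs, all receptors, and per family the 2 lowest and 2 highest slopes. Others were added after their values were seen, as were per-series levels.

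Same-numbered libraries deviated together at 15 min (correlations of 0.35 to 0.68) and not at every number at 0, 60 and 240 min. Libraries of one group differed more than counting alone gives, with chi-square per df of 6.52 to 222. The labels do not say that libraries came from separate plants, so p-values measure the spread between these samples. On simulated data the 0 min test recovered 93 of 200 features changed by 1 log2 unit, and the stimulus slope test 200 of 200 changed by 0.5 per hour. The simulation set the same spread for every feature, with no differences between series and no decay factor. It therefore does not give the power of either test on the real libraries. Alternatives were DESeq2 1.42.0, other library sizes, filters, references, a replicate block and leaving out libraries. Floors and intervals cover counting error only.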

Additional observations from a re-analysis of the deposited data

How the results depend on the processing

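At 0 min the 39 called members became 30 to 38 when a library was left out, 37 with total counts, 38 without a filter on low counts and 39 with median-ratio sizes, DESeq2 or the replicate block. With total counts ARF2 (0.20), ARF17 (0.036) and AFB2 (0.034) changed sign. IAA7, near 0, changed sign without a filter (-0.00168) and ran from -0.0089 to 0.081 with a library left out, and IAA12 ran from -0.030 to 0.19. None of these was called. At 15 min the 15 called members became 26 with the replicate block, 10 to 18 with a library left out and 1 without the libraries with a clock score above 0.5. At 60 min the 12 became 2 to 10 with a library left out and 0 without those libraries, and at 240 min the 13 became 4 to 28 and 29. The replicate block gave 14 and 18 at those times, where same-numbered libraries did not deviate together at every number. The correlations ran from -0.11 to 0.80 at 60 min and from -0.14 to 0.62 at 240 min. Leaving out the high-score libraries, the photosynthesis reference and the split by clock score were chosen after seeing the data. Shares of all features under the alternatives of this section are not given, so the changed counts are not read as results about the members.

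The 26 members called falling in stimulus became 13 with no decay factor, 12 with total counts, 0 over 0 to 60 min, 8 with the photosynthesis reference, 16 within the high-score libraries alone, 0 within the others, 0 to 25 with a replicate left out and 27 with the replicate block. In mock the 0 became 12 within the high-score libraries, which hold 4 of the 12 mock libraries. The rate difference was called for 4 members with the photosynthesis reference and for 0 otherwise, also with each replicate or series left out. Slopes that changed sign were those of IAA12 (0.060) and AFB5 (0.037) with the photosynthesis reference, of IAA16 (-0.027), IAA20 (-0.49) and ARF19 (-0.10) over 0 to 60 min, and of IAA20 (-0.085 to 0.19), ARF9 (-0.0020 to 0.042) and ARF19 (-0.036 to 0.13), each as a range with a replicate left out. The cause of these shifts was not tested. Depth limits IAA6, IAA15, IAA31 and IAA33, for which a change at 0 min rests on few or no counts.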

Other observations

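IAA34 and IAA32, nearly silent in mock at 0 min, were higher in the later mock libraries of replicates 3 and 4. IAA34 lay at 0.961, 1.98 and 1.05 CPM at 15, 60 and 240 min in mock replicate 3 and at 1.92, 1.83 and 1.36 CPM in mock replicate 4, and at 0.144, 0.143 and 0.110 CPM in mock replicate 2. The stimulus libraries lay at 1.45 to 2.14 CPM at 0 min. IAA32 lay at 0.737, 0.742 and 0.736 CPM in mock replicate 3 and at 1.70, 1.35 and 0.557 CPM in mock replicate 4, below every stimulus library. The pattern was noticed in the data and was not tested.

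Neighbouring Aux/IAA genes did not always move alike at 0 min. IAA1 and IAA14, 10732 bp apart on chromosome 4, were both higher. IAA2 and IAA7 lie 12510 bp apart on chromosome 3, and IAA2 was higher while IAA7 had 0.01 ± 0.08. IAA3 and IAA17 lie 6388 bp apart on chromosome 1 and had 0.78 ± 0.39 and -0.87 ± 0.32, neither called.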
